A study of Mus musculus with 8 samples.

Results

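Transcripts of 10 genes that carry the insulin signal from its receptor to the transcription factor FOXO1 were read on arrays of inguinal white fat (iWAT), a subcutaneous depot, from mice with and without deletion of Senp2 in adipocytes. The genes were Insr, Irs1, Irs2, Pik3r1, Pik3ca, Akt1, Akt2, Gsk3b, Foxo1 and Tbc1d4. They were picked as named steps of the route, by no threshold on a measured value but with earlier results of these data known, and every probe matched to them through its RefSeq accession was read, 19 of 55681 probes. All 10 genes were among the 14730 named genes that were tested, and all 19 probes were well above background on all 8 arrays.

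Insulin binds the receptor encoded by Insr, which adds phosphate to the docking proteins IRS1 and IRS2. These recruit phosphatidylinositol 3-kinase (PI3K), made of a regulatory subunit such as p85α (Pik3r1) and a catalytic subunit such as p110α (Pik3ca), whose lipid product activates the kinases AKT1 and AKT2. AKT inhibits the kinase GSK3B, keeps FOXO1 out of the nucleus, and phosphorylates TBC1D4 (AS160), which releases the glucose transporter GLUT4 to the cell surface. In adipocytes this route drives glucose uptake and lipid storage and restrains lipolysis, and FOXO1 is known to raise transcription of Irs2 and Insr when insulin is low.

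The control group was 4 samples from mice with the genotype Senp2flox/flox, and the Senp2-aKO group was 4 samples from mice with the same floxed alleles and Adipoq Cre, a recombinase driven by the adiponectin gene and so active in adipocytes. All mice of both groups began a high-fat diet with 58 kcal% fat at 8 weeks of age, ate it for 12 weeks and were housed at 22 to 24 °C. The series asks whether loss of Senp2, a protease that removes the protein SUMO from other proteins, turns white fat towards brown fat. The labels do not say whether each sample came from a separate mouse, so p-values measure the spread between these samples.

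Levels are log2 signals relative to the 75th percentile of each array, so a level of 0 is the signal of that percentile, and a positive log2 fold change means a higher level in Senp2-aKO samples. The mean of that percentile over 4 arrays was 419 in controls (SD 18.2) and 349 in the Senp2-aKO group (SD 27.1), and 29403 to 31448 probes per array were well above background. Controls and Senp2-aKO samples lay in separate slide rows, so row and group cannot be told apart. Senp2 itself was at 2.46, 2.46, 2.52 and 2.37 in controls and at 2.19, 2.12, 2.20 and 2.22 in Senp2-aKO samples, with no overlap, and its single probe just missed the threshold (82.8% of control, limma adjusted p = 0.0507). All 14 adipocyte markers, Adipoq and Plin1 among them, were well above background on all 8 arrays, with list means of 7.09 to 7.37 in controls and 6.97 to 7.41 in Senp2-aKO samples.

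Transcripts of other cell types moved with the groups or stood out on single arrays. Markers are counted as risen at a limma adjusted p under 0.05, where 7.29% of all genes tested were called higher. Of 23 skeletal muscle markers 18 rose, and the list mean was -2.02, -2.02, 0.77 and -0.08 in controls and 2.17, 2.81, 3.50 and 3.05 in Senp2-aKO samples; 19 of the markers were well above background on all 8 arrays. Of 12 brown and beige adipocyte markers 7 rose, with list means of 0.15 to 0.69 in controls and 1.96 to 2.88 in Senp2-aKO samples. Lymphocyte lists stood apart on aKO 2, at 1.66 for B and 2.26 for T cells, against -3.27 to -0.75 and -1.57 to -0.31 on the other 7 arrays. Of 9 markers of mammary and skin epithelium 4 were measured and 2 rose, with list means of -3.02 to -2.66 in controls and -2.44 to -1.20 in Senp2-aKO samples, while Csn2 and Krt1 were above background on 0 arrays. Skeletal muscle and lymphocytes also express the insulin signalling genes, and the part of these cells in the results below was not tested. In a whole fat pad, fewer cells of a type and less RNA per cell cannot be told apart.

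**Figure D1:**
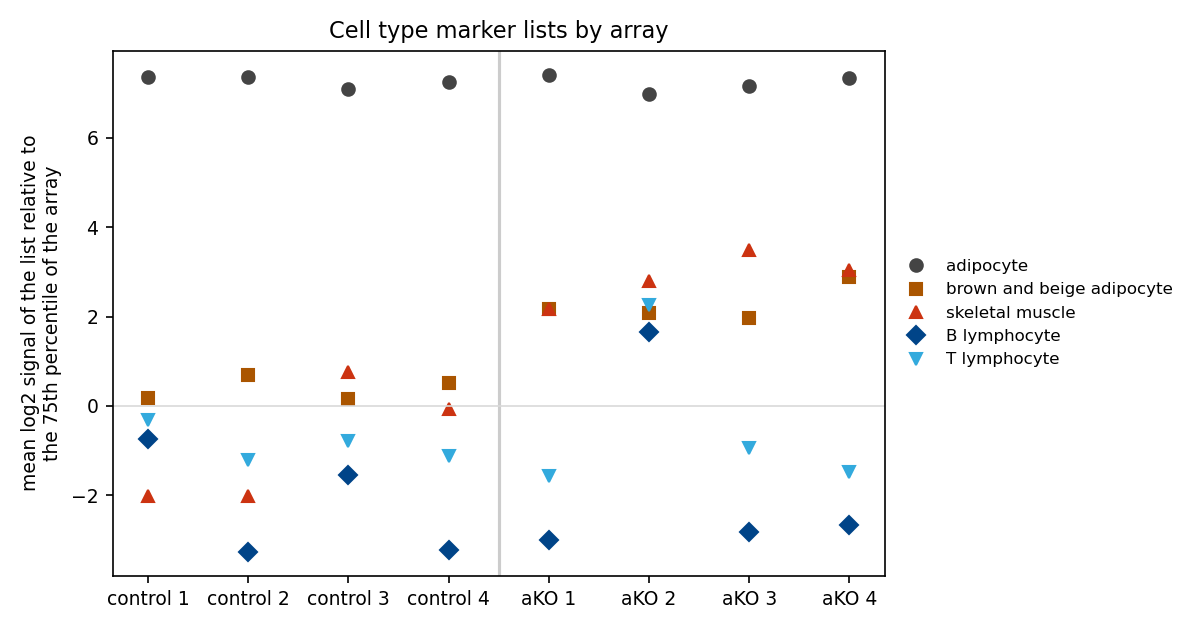
Mean log2 signal of 5 marker lists (y axis, relative to the 75th percentile of each array) on each of the 8 arrays (x axis), 1 point per list and array. The adipocyte list stays between 6.97 and 7.41, the muscle list is above 2 on all Senp2-aKO arrays and below 1 on all controls, and the lymphocyte lists are high on aKO 2.

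The start regions of the docking proteins Irs1 and Irs2 and of Foxo1 are shown because Irs1 fell, Irs2 did not pass the test, and Foxo1 rose. The sequences are the 250 bases before the annotated gene start, written 5′ to 3′ on the strand of the gene, from RefSeq (GRCm38.p6). They lie at chr1:82291440-82291689 (minus strand), chr8:11008930-11009179 (minus strand) and chr3:52268087-52268336 (plus strand), and capitals mark matches to the motifs named after them.
Irs1 promoter: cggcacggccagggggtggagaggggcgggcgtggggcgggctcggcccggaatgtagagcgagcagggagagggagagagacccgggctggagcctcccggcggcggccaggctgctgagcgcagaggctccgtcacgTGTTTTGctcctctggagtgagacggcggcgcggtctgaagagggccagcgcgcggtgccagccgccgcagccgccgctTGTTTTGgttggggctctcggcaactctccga
Irs2 promoter: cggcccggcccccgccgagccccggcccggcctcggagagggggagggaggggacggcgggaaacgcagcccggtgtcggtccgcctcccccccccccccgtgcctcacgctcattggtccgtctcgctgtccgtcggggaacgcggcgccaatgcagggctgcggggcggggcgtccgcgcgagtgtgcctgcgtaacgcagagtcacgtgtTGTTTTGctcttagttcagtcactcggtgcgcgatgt
Foxo1 promoter: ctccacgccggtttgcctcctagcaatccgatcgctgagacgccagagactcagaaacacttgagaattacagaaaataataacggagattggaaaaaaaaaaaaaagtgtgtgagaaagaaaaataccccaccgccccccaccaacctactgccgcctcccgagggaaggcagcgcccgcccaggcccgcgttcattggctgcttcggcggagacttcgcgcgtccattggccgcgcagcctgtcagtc
Searched on both strands were GTAAACA, a FOXO site, CAAAACA, the core of the insulin response element to which FOXO factors also bind, and TTNNGCAA, a form of the C/EBP site. The CAAAACA core, read here as its reverse complement TGTTTTG, began 111 and 32 bases before the start of Irs1 and 37 bases before that of Irs2. It is present in 5.56% of 32851 promoters of the same length. The Foxo1 stretch holds none of the 3 motifs, and neither do those of Pik3ca, Gsk3b, Akt2 and both Pik3r1 starts. Of the other members, Akt1 has 1 GTAAACA match (in 3.17% of promoters) and Tbc1d4 has 1 TTNNGCAA match (in 9.56%). The table holds 14 start regions for 9 of the members, and Insr is not in it. A match is a string of letters, and binding was not measured.

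Foxo1 rose and Irs1, Pik3r1 and Gsk3b fell in Senp2-aKO fat, while the other 6 genes did not pass (limma over all genes, Benjamini-Hochberg adjusted p under 0.05). This is 4 of 10 genes, against 14.4% of all genes tested. The 3 falls compare with 7.12% of all genes called lower and the single rise with 7.29% called higher. The groups did not overlap in the same 4 genes, against 26.3% of all genes, and 5 of 10 had an unadjusted p under 0.05, against 32.3% of all genes. The median log2 fold change was -0.04 over the 10 genes and -0.02 over all genes. Changes of the members were below 2-fold throughout.

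**Figure D2:**
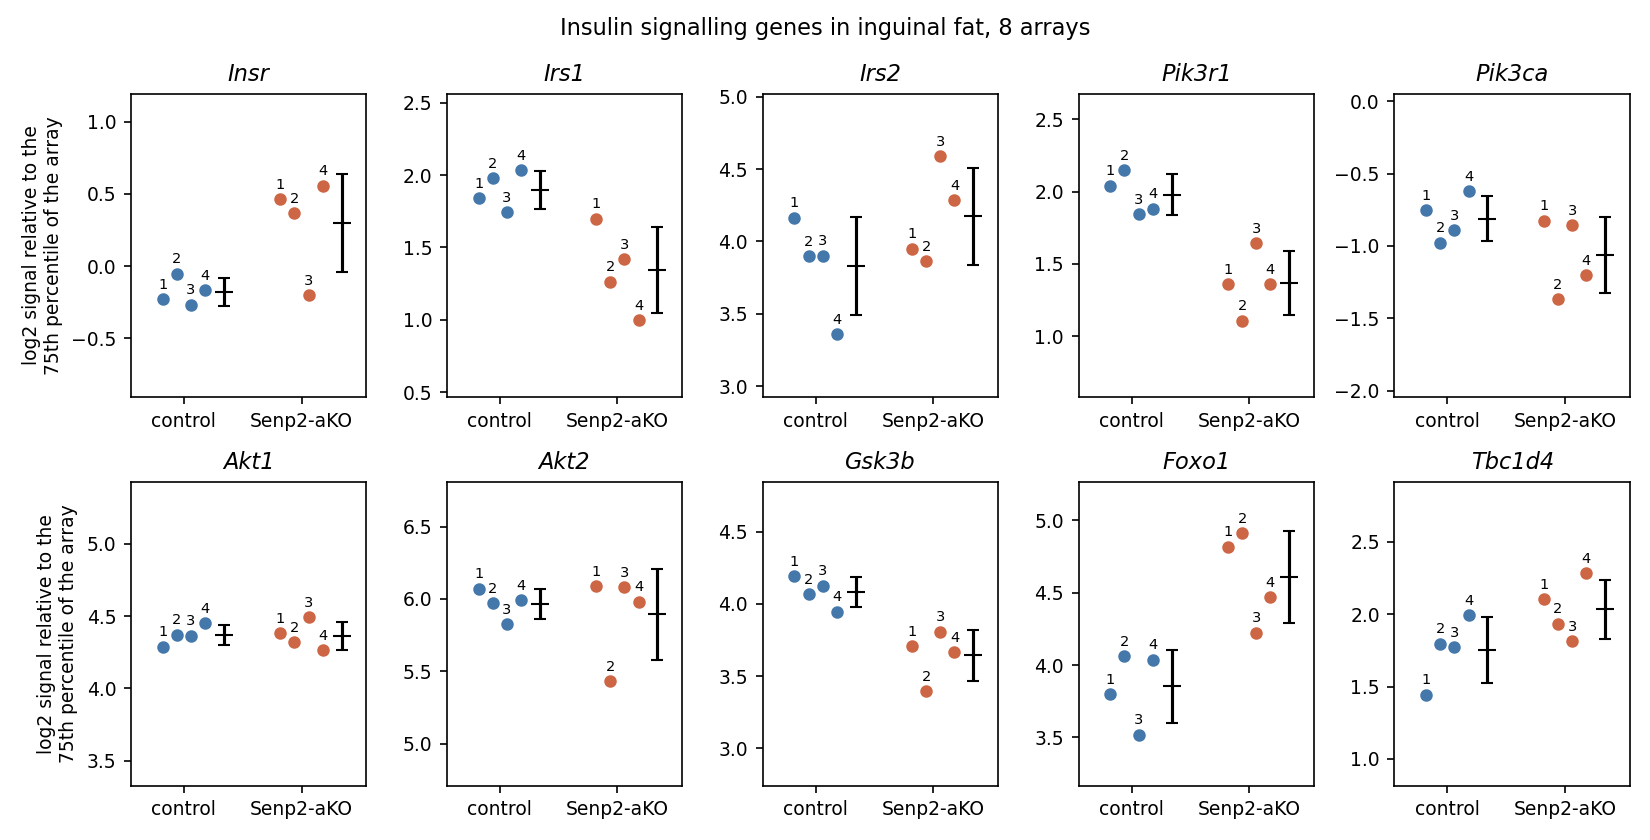
Log2 signal relative to the 75th percentile of the array (y axis, the same span in each panel) for the 10 genes in 4 control and 4 Senp2-aKO samples (x axis). Points are arrays with their replicate number and black marks are the mean ± SD; the groups are apart for Irs1, Pik3r1, Gsk3b and Foxo1 and overlap for the other 6 genes.

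Insr, the receptor, was read by 3 probes that gave nearly the same difference and did not pass. The probe that stood for the gene was at -0.23, -0.05, -0.27 and -0.17 in controls and at 0.46, 0.37, -0.20 and 0.56 in Senp2-aKO samples. The samples aKO 1, 2 and 4 lay above all controls, while aKO 3 lay among them. Its log2 fold change was 0.47 (SE 0.17, limma adjusted p = 0.0920), or 139% of control (95% interval 107 to 181, n = 4 per group). The other probes gave 0.48 and 0.47, and aKO 3 was again the lowest Senp2-aKO sample in each, at -0.40 and -1.45. Without aKO 3 the difference was 0.64 and passed (limma adjusted p = 0.00978). This was the only 1 of 8 omissions in which Insr passed, and the others gave 0.127 to 0.195.

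Irs1, a docking protein of the receptor, fell to 68.1% of control (95% interval 53.2 to 87.1). Levels were 1.84, 1.98, 1.74 and 2.03 in controls and 1.70, 1.26, 1.42 and 0.9956 in Senp2-aKO samples. Only a narrow gap, between control 3 and aKO 1, parted the groups. The log2 fold change was -0.55 (SE 0.15, limma adjusted p = 0.0488, n = 4 per group), close to the threshold. A dimmer second probe gave -0.30 (SE 0.15) with overlapping groups, and its adjusted p over all probes was 0.234. The call ended when the mean of both probes was taken (-0.43, adjusted p = 0.0702).

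Irs2, the other docking protein, did not pass. Its probe was at 4.16, 3.90, 3.90 and 3.36 in controls and at 3.95, 3.86, 4.59 and 4.29 in Senp2-aKO samples. The groups overlapped, with aKO 3 and aKO 4 above all controls. On the log2 scale the change was 0.34 (SE 0.21, adjusted p = 0.305), or 127% of control (95% interval 90.1 to 179), an interval that holds both a small loss and a gain.

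Pik3r1, whose product p85α joins PI3K to the docking proteins, fell to 65.5% of control (95% interval 53.0 to 80.8). Levels were 2.04, 2.15, 1.84 and 1.88 in controls and 1.36, 1.11, 1.64 and 1.36 in Senp2-aKO samples, and every Senp2-aKO sample lay below every control. The log2 fold change was -0.61 (SE 0.13, limma adjusted p = 0.0221), the smallest adjusted p of the 10 genes. Pik3r1 was read by 1 probe. The gene has 2 listed start regions, and which of their transcripts this probe reads was not tested.

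Pik3ca, the catalytic subunit p110α, did not pass. It was at -0.75, -0.98, -0.89 and -0.62 in controls and at -0.83, -1.37, -0.85 and -1.20 in Senp2-aKO samples. Samples aKO 2 and aKO 4 lay below all controls and the other two lay among them. On the log2 scale the change was -0.25 (SE 0.15, adjusted p = 0.279), or 84.0% of control (95% interval 66.2 to 106).

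Among the 10 members the AKT kinases showed the smallest differences. Akt1 was at 4.29, 4.37, 4.37 and 4.45 in controls and at 4.38, 4.32, 4.49 and 4.26 in Senp2-aKO samples. Its log2 fold change was -0.01 (SE 0.09, adjusted p = 0.971), with a 95% interval of 86.8 to 114% of control. Akt2, the form that is known to serve insulin-driven glucose uptake in fat, was at 6.07, 5.97, 5.83 and 5.99 in controls and at 6.09, 5.43, 6.08 and 5.98 in Senp2-aKO samples. All but aKO 2 lay within or just above the control range. The log2 fold change was -0.07 (SE 0.16, adjusted p = 0.794; 95.4% of control, interval 74.2 to 123). A second probe gave -0.13, and another, dimmer, one 0.08. The signs of Akt1 and Akt2 turned on leaving out single arrays, and that of Akt2 also with array weights, so neither gene has a settled direction.

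Gsk3b, a kinase that restrains glycogen synthesis until AKT inhibits it, fell to 73.8% of control (95% interval 61.7 to 88.3). Levels were 4.19, 4.06, 4.13 and 3.95 in controls and 3.71, 3.39, 3.81 and 3.67 in Senp2-aKO samples, with no overlap. On the log2 scale the change was -0.44 (SE 0.11, limma adjusted p = 0.0373). All 3 probes had groups that did not overlap, and the others gave -0.74 and -0.45. In all 3 probes aKO 2 was the lowest array, at 3.39, 0.25 and -0.54.

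Foxo1, the transcription factor at the end of the route, rose to 168% of control (95% interval 125 to 227). Levels were 3.80, 4.06, 3.52 and 4.04 in controls and 4.82, 4.91, 4.22 and 4.47 in Senp2-aKO samples, and every Senp2-aKO sample lay above every control. The log2 fold change was 0.75 (SE 0.19, limma adjusted p = 0.0344). A second probe gave 0.74 (SE 0.22), with aKO 3 at 3.10 just below control 4 at 3.20. The skeletal muscle list mean was also higher on every Senp2-aKO array than on every control, and its part in the Foxo1 difference was not tested.

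Tbc1d4, the AKT substrate that holds GLUT4 inside the cell, did not pass. It was at 1.44, 1.80, 1.77 and 1.99 in controls and at 2.10, 1.93, 1.81 and 2.28 in Senp2-aKO samples. The groups overlapped, and control 1 lay below all other arrays. On the log2 scale the change was 0.28 (SE 0.15, adjusted p = 0.227), or 122% of control (95% interval 96.0 to 154), and a second probe gave 0.16 (SE 0.15).

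Over all 30508 probes taken singly, 1 member probe was called higher, that of Foxo1 (limma adjusted p = 0.0431), and 1 was called lower, that of Pik3r1 (adjusted p = 0.0300). This is 2 of 19 member probes, against 9.83% of all probes (5.48% higher and 4.35% lower). Another 8 had an unadjusted p under 0.05, 10 of 19 in all, against 28.4% of all probes, and groups did not overlap in 7 of 19, against 23.1%. Of the 6 genes with several probes, 5 had probes of 1 sign, and Akt2 had both signs. Probes of a gene read the same RNA and are not independent.

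**Figure D3:**
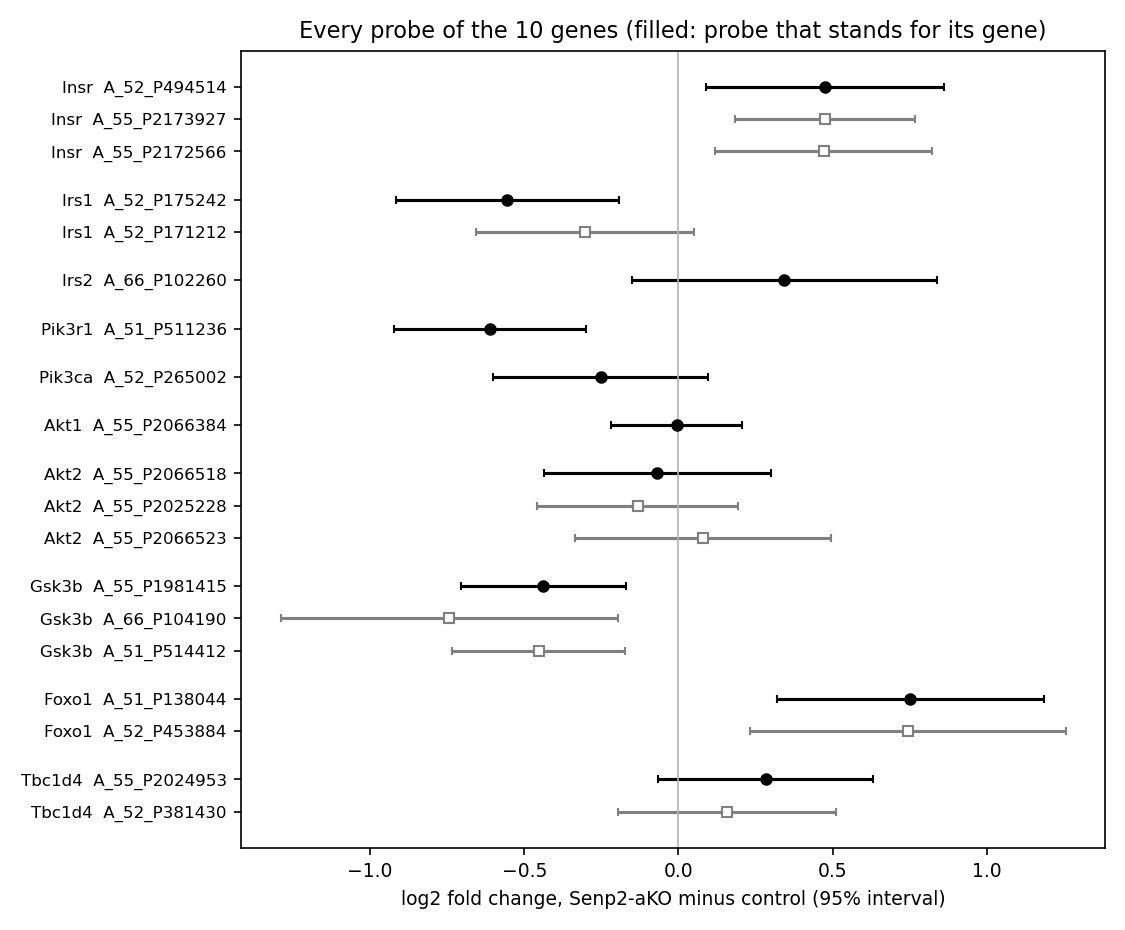
Log2 fold change, Senp2-aKO minus control (x axis), of each of the 19 probes (y axis), with 95% intervals from limma over all probes and 4 arrays per group. The 3 Insr probes sit at 0.47 to 0.48 and the 3 Gsk3b probes at -0.74 to -0.44, while the Akt1 and Akt2 probes lie around 0.

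The calls depended on which array was left out, with directions kept for all members other than Akt1 and Akt2. Pik3r1 passed in 4 omissions, of control 3, control 4, aKO 2 and aKO 3 (limma adjusted p between 0.0133 and 0.0466). It missed in those of control 1, control 2, aKO 1 and aKO 4 (0.0536 to 0.0703). Gsk3b passed without aKO 2 or aKO 3 (0.0320 in each), and missed without any other array (0.0582 to 0.110). Foxo1 passed without aKO 3 (0.0191), and missed in the other 7 omissions (0.0504 to 0.0927), that of aKO 2 being the nearest. Irs1 passed without aKO 1 (0.0317), and missed in the other 7 (0.0666 to 0.117). Without aKO 2, the array with high lymphocyte markers, 0 members were called higher and 2 lower, while the calls over all genes went from 1074 to 1356 higher and from 1049 to 1472 lower.

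**Figure D4:**
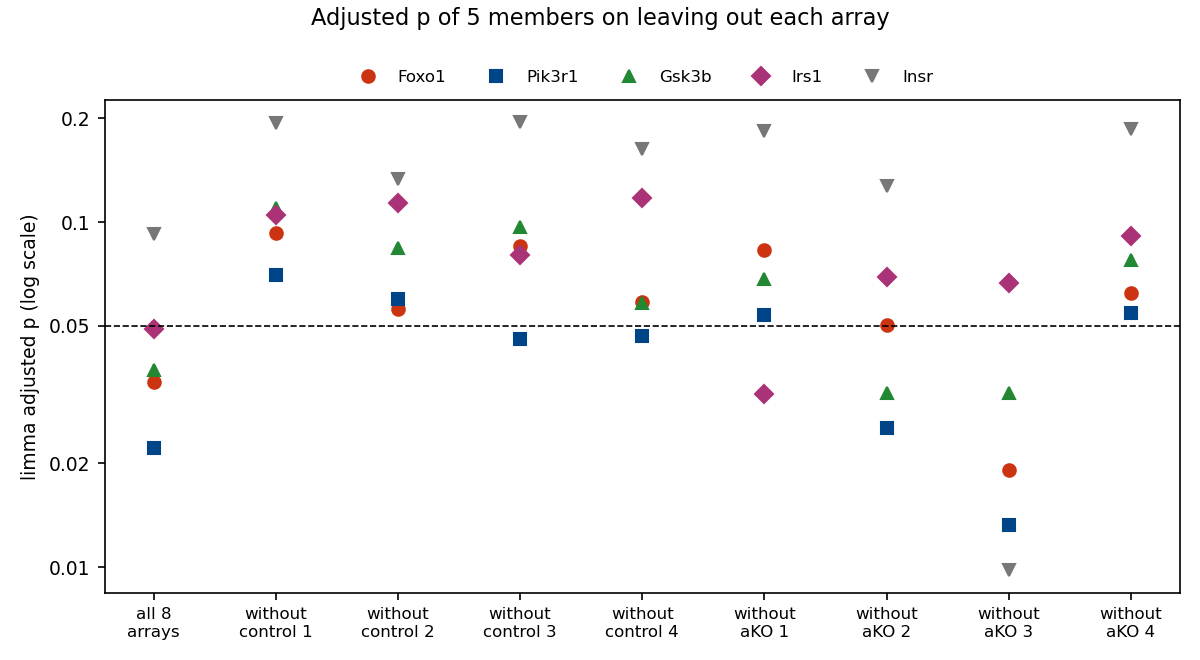
Limma adjusted p (y axis, log scale) of 5 members with all 8 arrays and on leaving out each array in turn (x axis), 1 point per gene and fit; the dashed line is 0.05. Pik3r1 lies between 0.0133 and 0.0703 over the omissions, and Insr passes where aKO 3 is left out.

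Each member was also set against a related gene within the same array, a difference in which a constant shift of an array cancels. Over 8 such pairs 0 passed the exact permutation test after adjustment over the pairs. Of these, 2 had an unadjusted two-sided p of 0.0286, the smallest that 4 against 4 arrays allow. Even at this smallest p the adjusted value was 0.114, so a few pairs could not have passed, however far apart the groups lay. The adjusted test therefore does not show that no pair changed unequally. Gsk3b minus Gsk3a fell by 0.58 on the log2 scale (exact p = 0.0286, adjusted 0.114), where Gsk3a itself had a log2 fold change of 0.14 (SE 0.09). Pik3ca minus Pik3cb differed by 0.68 (exact p = 0.0286, adjusted 0.114), where Pik3cb encodes the catalytic subunit p110β and Pik3ca itself did not pass. The mean of Irs2 minus Irs1 was 1.93 (SD 0.44) over the 4 controls and 2.83 (SD 0.49) over the 4 Senp2-aKO arrays, with an exact permutation p of 0.0571 (adjusted 0.152). Tbc1d4 minus Tbc1d1 differed by 0.43 (exact p = 0.0857, adjusted 0.171), and both Foxo1 minus Foxo3 (0.67) and Insr minus Igf1r (0.48) had an exact p of 0.143 (adjusted 0.190). Igf1r, the receptor of insulin-like growth factor 1, had a log2 fold change of 0.00 (SE 0.13) and Foxo3, a related factor, 0.09 (SE 0.21). Foxo3 was dim, at -3.93 to -3.495 in controls and -3.94 to -2.99 in Senp2-aKO samples, the highest being aKO 3. Both regulatory subunit genes fell, with Pik3r1 minus Pik3r2 at -0.11 (exact p = 0.257, adjusted 0.294), and Akt2 minus Akt1 differed by -0.06 (exact p = 0.771).

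The other genes of the route were read from 6 lists with 137 genes, of which 136 were measured. Of these 16 rose, 11 fell and 109 did not pass, so 19.9% were called, against 14.4% of all genes, with a median log2 fold change of -0.03. These counts were lower on leaving out any array other than aKO 2 or aKO 3, with 6 to 9 called higher and 2 to 7 lower.

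Among 18 receptor and adaptor partners 1 rose, 3 fell and 14 did not pass (median -0.10). The share called was 22.2%, against 14.4% of all genes. Sh2b2, the adaptor APS that the active insulin receptor binds in adipocytes, was at 3.02, 3.24, 2.78 and 3.22 in controls and at 5.06, 5.08, 3.76 and 4.74 in Senp2-aKO samples. It rose 3.01-fold (adjusted p = 0.0139 in limma), with a 95% interval of 1.90 to 4.78 and aKO 3 again the lowest of its group. The docking protein genes that fell were Dok4 (log2 fold change -1.05, SE 0.14, adjusted p = 0.00568), Gab1 (-0.87, SE 0.18, and -0.42 with the normexp background) and Irs3, a rodent relative of Irs1 found in fat (-1.46, SE 0.36). Irs3 levels were 2.69 to 2.85 in controls, and 1.49, 0.09, 1.97 and 1.66 in Senp2-aKO samples, with aKO 2 far below the rest. The Dok4 and Sh2b2 calls held in all 8 omissions of an array, that of Gab1 in 5 and that of Irs3 in 2.

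Among 27 other PI3K and AKT kinases and regulators 0 rose, 3 fell and 24 did not pass, so 11.1% were called, against 14.4% of all genes (median -0.05). In limma 8 had an unadjusted p under 0.05, where 32.3% of all genes did. Pik3cb fell to 52.3% of control (log2 fold change -0.94, SE 0.19, adjusted p = 0.0177), from 1.30 to 1.46 in controls to 0.49, -0.14, 0.73 and 0.67 in Senp2-aKO samples. Pik3r2, the regulatory subunit p85β, fell less (-0.50, SE 0.14, adjusted p = 0.0478), as did Rheb, the GTPase that activates mTOR complex 1 (-0.32, SE 0.09, adjusted p = 0.0465). A second Rheb probe gave -0.20, and the mean of both probes did not pass in limma (-0.26, adjusted p = 0.0887). The Pik3cb call held in 7 of 8 omissions, that of Pik3r2 in 2 and that of Rheb in 1. Pdpk1, the kinase that activates AKT, was named after its value was seen and did not pass (-0.17, SE 0.10, adjusted p = 0.290).

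Among 24 measured inhibitors of insulin signalling 1 rose, 3 fell and 20 did not pass (median 0.02). The share called was 16.7%, near the 14.4% of all genes. Trib3, a pseudokinase that binds AKT, fell to 48.7% of control (log2 fold change -1.04, SE 0.20, adjusted p = 0.0166). Ptprf, a receptor tyrosine phosphatase (-0.75, SE 0.19), and Phlpp2, a phosphatase of AKT (-0.36, SE 0.08), also fell. Inpp4a, a lipid phosphatase, rose by its brighter probe (0.46, SE 0.11), while its second probe gave 0.09 and the mean of both did not pass (0.28, adjusted p = 0.121). Even the brighter Inpp4a probe was dim, at -3.17 to -2.99 in controls and -2.84 to -2.43 in Senp2-aKO samples. Calls held without a single array in 7 of 8 cases for Trib3, 3 for Phlpp2, 2 for Inpp4a and 1 for Ptprf.

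Of 28 FOXO factors, regulators and known FOXO target genes, 9 rose, 1 fell and 18 did not pass, so 32.1% were called higher, against 7.29% of all genes, with a median of 0.22. Pdk4, which blocks pyruvate entry to the citric acid cycle, was at 3.83, 4.14, 3.82 and 4.15 in controls and at 5.92, 5.96, 5.97 and 6.92 in Senp2-aKO samples. It rose 4.62-fold (adjusted p = 0.00367 in limma), with a 95% interval of 3.19 to 6.69, and passed in all 8 omissions. Fbxo32 rose to 200.3% of control, and Trim63 rose too (limma adjusted p = 0.00367). Both encode ubiquitin ligases of skeletal muscle. The marker means of skeletal muscle and of brown and beige adipocytes were higher on every Senp2-aKO array than on every control. Their part in the rises of this list, that of Pdk4 included, was not tested. Trim63 was well above background on only 2 of 4 control arrays, so the size of its rise is not settled. Its log2 fold change was 6.48 as reported and 3.88 with the normexp background, and it left the test under the filter on all 8 arrays. Sesn3, a stress-response gene, fell to 69.5% of control (log2 fold change -0.53, SE 0.10, adjusted p = 0.0162). The other 6 that rose, named after their values were seen, were Cdkn1a (0.96), Bcl6 (0.76), Sesn1 (0.58), Pnpla2 (0.52), Txnip (0.48) and Angptl4 (0.42). These 6 calls rest on all 8 arrays, since none held in more than 4 omissions, and on leaving out 1 array the count of risen genes in the list was 3 to 8. The count was 5 under quantile normalisation, where Angptl4 (0.16), Pnpla2 (0.27), Txnip (0.31) and Sesn1 (0.58) did not pass. The first 3 of these changes were smaller there, while Cdkn1a (0.94) and Bcl6 (0.73) still passed. Angptl4 also missed with the normexp background (0.34, limma adjusted p = 0.0669).

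Among 20 genes of GLUT4 vesicle traffic and glucose entry 2 rose, 0 fell and 18 did not pass, so 10% were called, against 14.4% of all genes (median -0.14). In limma 7 had an unadjusted p under 0.05, where 32.3% of all genes did. Slc2a1, the glucose transporter GLUT1, was between 0.90 and 1.20 in controls and at 1.49, 1.66, 1.49 and 1.64 in Senp2-aKO samples, with no overlap. It rose 1.46-fold (95% interval 1.25 to 1.71, adjusted p = 0.0127) and passed in all 8 omissions. Trip10, an adaptor of vesicle traffic, rose 1.53-fold (adjusted p = 0.0240) and passed in 4. Slc2a4, which encodes GLUT4 and was named after its value was seen, did not pass (log2 fold change 0.28, SE 0.16, adjusted p = 0.268).

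Among 20 metabolic targets of insulin in adipocytes 3 rose, 1 fell and 16 did not pass (median -0.18). The share called was 20%, against 14.4% of all genes, and the share called higher was 15%, against 7.29%. Both changed glycogen-targeting subunits of protein phosphatase 1 moved apart, with Ppp1r3c higher (log2 fold change 1.17, adjusted p = 0.0124) and Ppp1r3d lower (-0.93, SE 0.13, adjusted p = 0.00636). Ppp1r3c was at 0.82, 1.17, 0.74 and 1.41 in controls and at 2.64, 2.26, 1.99 and 1.94 in Senp2-aKO samples. Ppp1r3d was at 2.10 to 2.39 in controls and at 0.99 to 1.44 in Senp2-aKO samples. Gys1, the glycogen synthase that GSK3B inhibits, rose 1.44-fold (adjusted p = 0.0245), and Pde3b, the phosphodiesterase through which insulin restrains lipolysis, rose 1.51-fold (adjusted p = 0.0310). The calls of both Ppp1r3 genes held in all 8 omissions, that of Gys1 in 4 and that of Pde3b in 2.

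**Figure D5:**
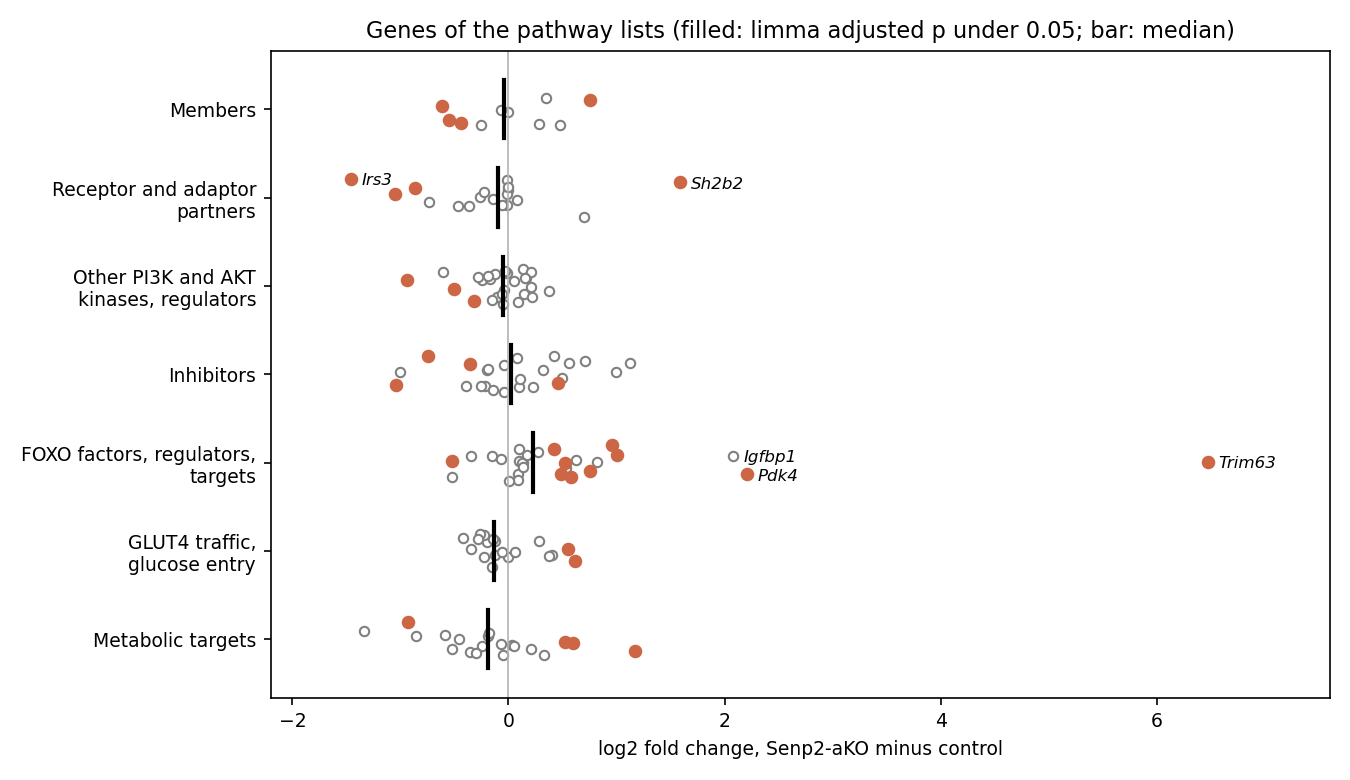
Log2 fold change, Senp2-aKO minus control (x axis), of the 10 members and of the measured genes of 6 lists (rows), 1 point per gene; filled points passed limma at an adjusted p under 0.05 and bars are medians. The FOXO row has its median at 0.22 and 9 filled points above 0, with Pdk4 at 2.21; the point of Trim63, at 6.48, rests on control levels above background on 2 of 4 arrays.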

How the data were processed

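Total RNA (0.5 µg per sample) was Cy3-labelled and put on 8 one-channel Agilent mouse arrays. Agilent Feature Extraction 11.5.1 made the scanner tables, per the file headers, and the deposited processed signal and median signals are intensity values with no scaling between arrays. Feature Extraction subtracts the background before it writes the processed signal, so differences of dim probes carry more error. Deposited flags of the unit other (0 or 1 per spot) mark spots that are well above background, saturated or uneven. The 8 value columns of the deposited matrix carry names that match no label and were not used.

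From each log2 processed signal the array's own 75th percentile was subtracted. Outlier spots were dropped (269 probes of 55681 kept no spot on some array) and repeat spots averaged. A probe was kept when well above background on at least 4 of 8 arrays, which gave 30508 probes. Probes were named through the RefSeq accession in the files (27656 named, 28025 without a name there, table of assembly GRCm38.p6), and the probe with the highest mean stood for its gene (14730 genes). The 2 groups were tested in limma 3.58.1 (R 4.3.3) over all genes, and separately over all kept probes, with Benjamini-Hochberg adjustment and a threshold of 0.05. Related genes were compared by their difference within each array, with an exact permutation test over 70 assignments. Other settings tried were a normexp background from the median signals (offset 50), quantile scaling, no filter or a filter on all 8 arrays, the mean of a gene's probes, array weights, the replicate number as a block, and leaving out each array.

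The members, the gene lists and the tests were chosen with earlier results of these data known. Named were the 10 members, Senp2, and up to 4 genes of each pathway list that passed, smallest adjusted p first. Deviations of same-numbered samples of both groups had low correlations across genes (-0.02, -0.08, 0.14 and 0.11). The labels do not say that equal numbers mark pairs, so the numbers were not treated as pairs.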

Additional observations from a re-analysis of the deposited data

Results flagged for a closer look

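Of 38 groups of 4 arrays (19 probes in 2 groups), 3 held an array that stood apart. Its gap to the nearest neighbour, as a share of the range of the group, was above Dixon's 95% limit for 4 values. Chance alone gives about 1 in 20, and 3 of 38 is near that share. The sample aKO 3 was low for 2 Insr probes. It was at -0.40 against 0.02 to 0.05 in the other Senp2-aKO samples (gap 0.931 of the range). In the second probe it was at -1.45 against -0.99 to -0.90 (gap 0.833). Both probes read the same RNA, so these 2 flags are not independent. The sample aKO 2 was low for the Akt2 probe that stood for the gene, at 5.43 against 5.98 to 6.09 (gap 0.837).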

How the results depend on the processing

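Quantile normalisation, the normexp background and the filter on all 8 arrays kept the 4 calls among the members and the 6 genes not called. With no filter on background Irs1 (-0.55, adjusted p = 0.0773), Gsk3b (-0.44, 0.0609) and Foxo1 (0.75, 0.0568) missed the threshold in limma, with 0 members called higher and 1 lower. Irs1 missed it with the mean of its probes (-0.43). The replicate block was fitted although the labels do not say that equal numbers mark pairs. It left Foxo1 called (limma adjusted p = 0.0353). Irs1 (-0.55, 0.113), Pik3r1 (-0.61, 0.0781) and Gsk3b (-0.44, 0.0738) were not called. That is 0 members lower, 1 member probe called, and 569 of all genes called lower. With array weights Insr passed (0.54, adjusted p = 0.0319), 2 members were called higher, and Akt2 turned to 0.021. Under array weights 1831 of all genes were called higher and 1932 lower, and with no filter 689 were lower. With normexp 7 member probes were called. The pathway lists had 18 genes called lower under quantile normalisation, 22 under array weights, 10 higher and 7 lower with no filter, and 10 higher and 6 lower with the replicate block. In the FOXO list 5 genes were called higher under quantile normalisation, with no filter and with the replicate block, and 0 were called lower with the block and 2 with array weights.

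On leaving out 1 array at a time, where 1 group keeps 3 arrays, the genes called ranged from 434 to 1356 higher and 280 to 1472 lower, against 1074 and 1049 as reported. Members called ranged from 0 to 2 higher and 0 to 2 lower, and member probes called from 0 to 8. Pathway genes ranged from 6 to 18 higher and 2 to 15 lower, and those of the FOXO list from 3 to 8 higher and 0 to 1 lower. Log2 fold changes ranged from 0.64 to 0.88 for Foxo1, -0.70 to -0.52 for Pik3r1, -0.49 to -0.36 for Gsk3b, -0.67 to -0.44 for Irs1 and 0.39 to 0.64 for Insr. Those of Akt1 ranged from -0.048 to 0.027 and of Akt2 from -0.13 to 0.086, with both signs, as did the dim Akt2 probe (-0.020 to 0.23) and Akt2 minus Akt1 (-0.12 to 0.077). Senp2 passed under quantile normalisation, normexp, the filter on all 8 arrays, array weights and without aKO 2 (adjusted p from 0.0162 to 0.0473), and missed with no filter (0.0797), the mean of probes (0.0523), the replicate block (0.135) and the other 7 omissions. The cause of these shifts was not tested.

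With 4 arrays per group, differences of the size seen for Irs2, Pik3ca and Tbc1d4 lie within their intervals of 0. The array measures RNA and not the phosphorylation by which this route mainly works.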
